A study of Mus musculus with 6 samples.

Results

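The 5 genes of the phosphofructokinase step of glycolysis described here, Pfkl, Pfkm, Pfkp, Pfkfb2 and Pfkfb3, were examined in a list of DNA regions enriched for methylation in mouse chondrocytes, the cells of cartilage. They were taken by name, and they are 5 of the 15771 protein-coding genes that lay on sequence covered by the list. The study set control mice carrying a floxed Dnmt1 allele (Dnmt1 flox, n = 3 cultures) against conditional knockout mice, cKO (Prx1-Cre;Dnmt1 flox/flox, n = 3 cultures), with chondrocytes taken from knee articular cartilage at postnatal days 3 to 5 and grown in primary culture. Both groups carry floxed Dnmt1, the gene of the methyltransferase that copies CpG methylation onto new DNA strands. Prx1-Cre acts in limb mesenchyme and its descendants, which are not chondrocytes alone. Methylated DNA was captured with MBD2, a protein that binds methylated CpG, and sequenced (MBD-seq). The data analysed were 1 list of 84111 peaks called on 3 merged datasets. The list does not say which group these came from, and it holds no value for any single culture, so control and cKO could not be compared and no value below has a replicate error. Neither the loss of Dnmt1, whose locus was not analysed here, nor the cell type, for which a methylation list holds no expression markers, could be checked.

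Phosphofructokinase commits glucose to glycolysis by adding a phosphate group to fructose 6-phosphate. The enzyme is built from subunits named after the tissues in which they were described: Pfkl encodes the liver, Pfkm the muscle and Pfkp the platelet subunit. Pfkfb2, known from heart, and Pfkfb3, an inducible form found in many proliferating cells, encode bifunctional enzymes that make and break down fructose 2,6-bisphosphate, the strongest activator of phosphofructokinase. Growth plate cartilage has few blood vessels, and its chondrocytes rely largely on glycolysis. The cells studied here came from articular cartilage and were cultured, and their glycolysis was not measured. MBD capture depends on how many methylated CpG a fragment carries, so a lack of a peak is no measure of unmethylated DNA.

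The sequences just before the transcription starts of these genes are shown because none of them was touched by a peak. Each is the 250 bases before a start listed by RefSeq on GRCm38.p6, written 5′ to 3′ on the gene's own strand, with every CpG in capitals. For Pfkm, start 2 and the start closest to a peak, start 4, are given; starts are numbered from the 5′ end.
Pfkl, chr10:78009808-78010057, minus strand: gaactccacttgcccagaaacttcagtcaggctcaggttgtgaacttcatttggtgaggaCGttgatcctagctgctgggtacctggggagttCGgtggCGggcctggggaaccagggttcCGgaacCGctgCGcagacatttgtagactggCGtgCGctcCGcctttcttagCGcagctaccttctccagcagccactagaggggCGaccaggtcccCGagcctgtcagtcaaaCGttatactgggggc
Pfkm start 2, chr15:98108221-98108470, plus strand: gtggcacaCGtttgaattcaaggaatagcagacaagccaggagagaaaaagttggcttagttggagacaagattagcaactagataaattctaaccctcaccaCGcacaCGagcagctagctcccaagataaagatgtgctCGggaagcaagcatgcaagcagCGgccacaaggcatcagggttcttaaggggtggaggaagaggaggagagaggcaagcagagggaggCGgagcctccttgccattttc
Pfkm start 4, chr15:98111810-98112059, plus strand: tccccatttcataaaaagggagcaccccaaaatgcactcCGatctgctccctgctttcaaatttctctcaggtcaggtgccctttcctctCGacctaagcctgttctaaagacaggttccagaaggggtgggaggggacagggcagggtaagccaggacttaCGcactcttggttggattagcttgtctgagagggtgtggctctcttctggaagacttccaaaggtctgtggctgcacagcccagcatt
Pfkp, chr13:6648772-6649021, minus strand: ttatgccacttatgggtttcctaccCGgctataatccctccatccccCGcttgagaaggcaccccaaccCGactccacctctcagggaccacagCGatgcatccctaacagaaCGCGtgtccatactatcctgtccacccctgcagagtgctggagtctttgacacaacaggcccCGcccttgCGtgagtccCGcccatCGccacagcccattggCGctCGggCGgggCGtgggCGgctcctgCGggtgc
Pfkfb2 start 1, chr1:130716049-130716298, minus strand: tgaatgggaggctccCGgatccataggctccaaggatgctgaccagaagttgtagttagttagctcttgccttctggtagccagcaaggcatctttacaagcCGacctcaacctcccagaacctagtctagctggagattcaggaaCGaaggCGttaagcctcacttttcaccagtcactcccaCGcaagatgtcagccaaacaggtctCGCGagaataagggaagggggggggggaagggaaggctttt
Pfkfb3 start 1, chr2:11553930-11554179, minus strand: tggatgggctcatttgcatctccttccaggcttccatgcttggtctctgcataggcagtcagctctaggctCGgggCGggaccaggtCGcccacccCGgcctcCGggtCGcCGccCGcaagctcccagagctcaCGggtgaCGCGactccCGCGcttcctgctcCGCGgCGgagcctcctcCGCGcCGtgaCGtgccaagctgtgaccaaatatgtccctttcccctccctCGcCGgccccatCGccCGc
These 250 bases held 13 CpG at Pfkl, 16 at Pfkp and 24 at start 1 of Pfkfb3. Pfkm had 6 before start 2 and 3 before start 4, and Pfkfb2 had 7 before start 1. Of the starts not printed, Pfkm had 2 before start 1 and 10 before start 3. Pfkfb2 had 11 before start 2 and 1 before start 3, and Pfkfb3 had 14 before start 2.

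The 5 genes held 29 peaks in their bodies, with 10 in Pfkl, 10 in Pfkm and 3 in each of Pfkp, Pfkfb2 and Pfkfb3. All 5 had at least 1 body peak, as did 64.7% of all protein-coding genes on covered sequence and between 71.2% and 89.6% of genes as long as each of the 5. The 2 genes with most peaks were also the shortest of the 5. A further 8 peaks lay within 10 kb of a gene, which made 37 in all; 81.7% of protein-coding genes had at least 1 peak in the body or within that distance. A peak was assigned by its midpoint, and none of the 29 midpoints lay in another gene of the table. Per 10 kb of gene, Pfkl held 4.37 body peaks and Pfkm 2.51. Pfkfb2 held 0.746, Pfkp 0.434 and Pfkfb3 0.363 body peaks per 10 kb, on either side of the 0.569 of all protein-coding genes pooled. The median protein-coding gene held 0.414 per 10 kb, and of these 3 genes only Pfkfb3 lay below it. Pfkl and Pfkm thus held more peaks than the other 3 genes both in number and per length. The fold enrichment given for each peak below is the authors' own value, a ratio to the background that their peak caller assigned. Which libraries gave that background is not given in the sources used here, and the list's name calls its regions Dnmt1-mediated, so whether a fold reports methylation alone or a difference between the groups is not known, and the same holds for a missing peak.

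**Figure D1:**
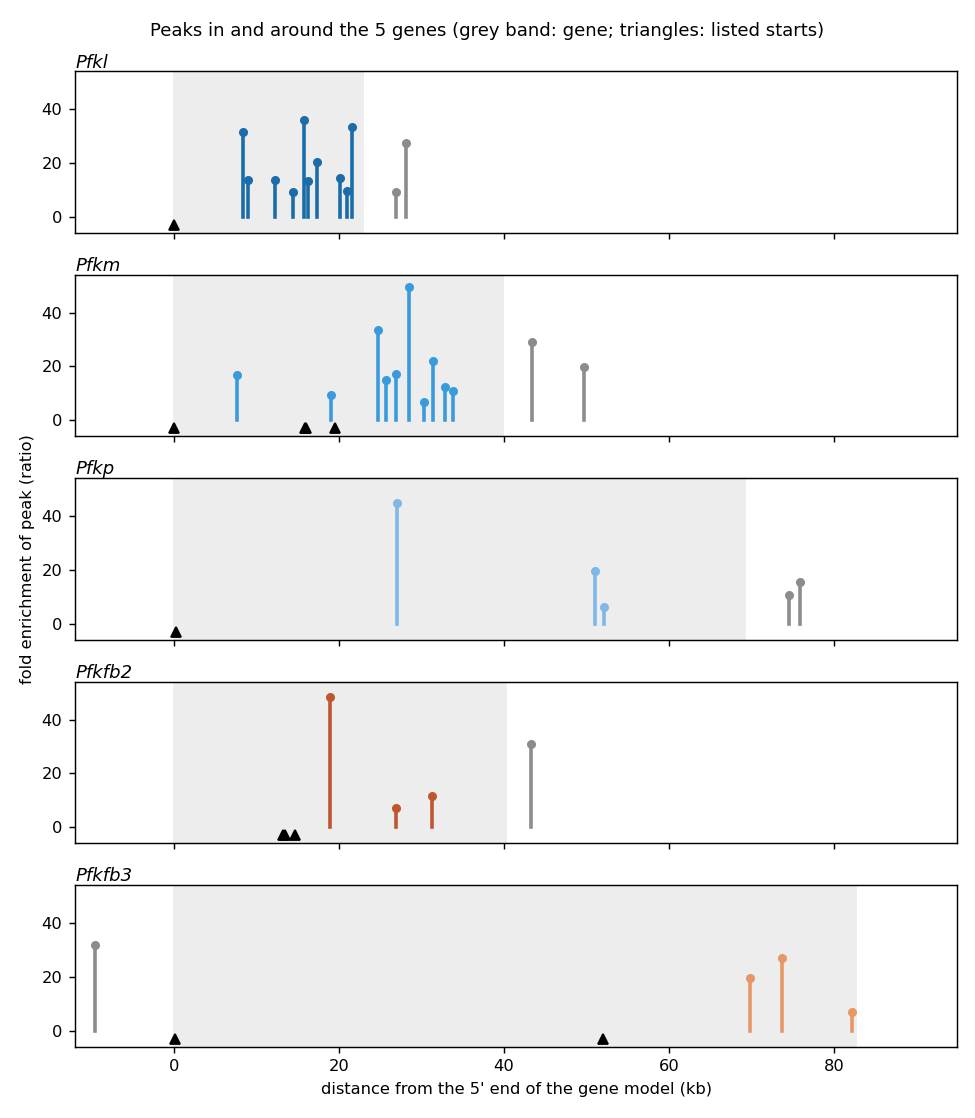
Peaks along Pfkl, Pfkm, Pfkp, Pfkfb2 and Pfkfb3, with the distance from the 5′ end of the gene model in kb on the horizontal axis and the fold enrichment of each peak on the vertical axis. The grey band is the gene, coloured stems are the 29 body peaks, grey stems the 8 peaks within 10 kb, and triangles the listed transcription starts; Pfkl and Pfkm carry 10 body peaks each and the other 3 genes carry 3 each.

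Each gene was then set beside the other protein-coding genes within 20% of its length. Among 1774 genes as long as Pfkl (22.9 kb) the median was 1 body peak (quartiles 0 and 3, highest 15). Only 25 of them, 1.41%, had 10 or more. Among 1520 genes as long as Pfkm (39.9 kb) the median was 2 body peaks (quartiles 1 and 5), and 5.2% had 10 or more. Pfkl and Pfkm thus stood in the upper tail of genes of their length.

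The other 3 genes had numbers of peaks common for their length. Pfkp (69.2 kb) matched the median of 3 among 1149 genes of its length, of which 58.2% had as many or more. Pfkfb2 (40.2 kb) had 3 against a median of 2 among 1515 genes, and 46.9% had as many or more. Pfkfb3 (82.6 kb) had 3 against a median of 4 among 1047 genes, and 63.9% had as many or more. All 3 lay between the quartiles for their length. Pfkm and Pfkfb2, which differ little in length, thus had 10 peaks against 3. No test was made of these numbers, because the genes were chosen with earlier results of the list known.

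**Figure D2:**
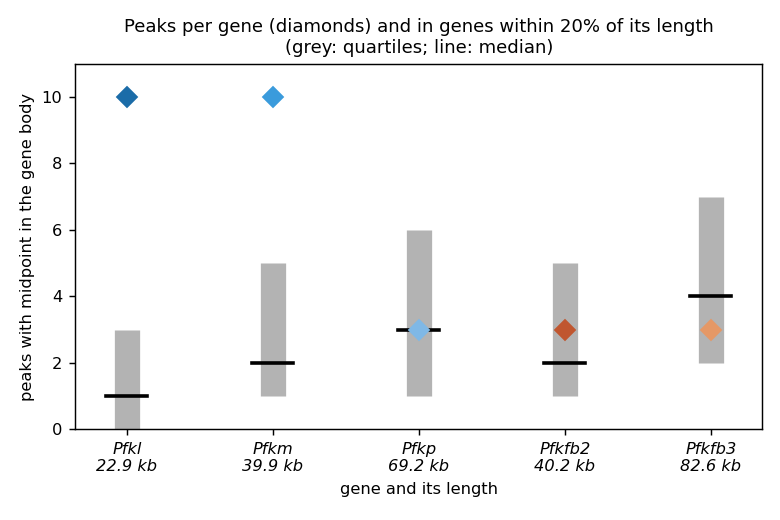
Number of peaks with their midpoint in the gene body for each of the 5 genes (diamonds), beside the median (black line) and quartiles (grey bar) of protein-coding genes within 20% of its length. Pfkl and Pfkm, with 10 peaks each, lie above the upper quartiles of 3 and 5, and the other genes lie within theirs.

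The share of the gene's own sequence under peaks gave the same order at the top. Peaks covered 17.5% of Pfkl, against a median of 2.47% for genes of its length, of which 3.27% were covered as far. They covered 10.7% of Pfkm (median 2.30%, and 5.79% were covered as far). For Pfkp, Pfkfb2 and Pfkfb3 the shares were 1.73%, 2.58% and 1.55%, against medians of 1.94%, 2.27% and 1.87%.

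Per 10 kb, Pfkl and Pfkm held more peaks than their surroundings. In the 50 kb on either side, Pfkl had 8 and 8 peaks, or 1.6 per 10 kb, against 4.37 in the gene. Pfkm had 3 and 4 peaks there, 0.7 per 10 kb, against 2.51 in the gene. Pfkfb2 also had more in the body than around it (0.746 against 0.5 per 10 kb). Pfkp and Pfkfb3 had fewer in the body than around it, 0.434 against 1.3 and 0.363 against 0.6 per 10 kb. The last 3 comparisons rest on 3 body peaks each. Other genes were not compared with their own surroundings, so how common such differences are is not known.

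Pfkl, the liver subunit gene (gene 18641), lies on the minus strand of chromosome 10, from 77986947 to 78009807. Its body peaks began 8.41 kb from the transcription start and ran to 21.5 kb, 1.33 kb short of the 3′ end. The 3 strongest had folds of 36.1 (at 15.7 kb), 33.5 (at 21.5 kb) and 31.5 (at 8.41 kb). These lay near the middle and at both ends of the run, with weaker peaks between them. A peak at 17.3 kb had a fold of 20.5, and those at 20.1, 12.2, 8.99 and 16.3 kb had folds of 14.2, 13.7, 13.6 and 13.2. The weakest were at 21.0 kb (9.63) and 14.4 kb (9.09). Neighbouring peaks were separated by 93 to 2849 bp, with a median gap of 675 bp. The strongest, at 77993778 to 77994373, was 596 bp wide.

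Pfkm, the muscle subunit gene (gene 18642), lies on the plus strand of chromosome 15, from 98092589 to 98132447. A run of 8 of its 10 body peaks lay in the 3′ part of the gene, from 24.8 to 33.8 kb from the 5′ end. The highest fold of all members, 49.5, belonged to this run. That peak, at 98120604 to 98121579, was 976 bp wide, the widest of the 29, with a −log10 q of 483. From 5′ to 3′ the run had folds of 33.4, 14.8, 17.4, 49.5, 6.78, 22.1, 12.3 and 10.9. The 2 highest of the run, 33.4 and 49.5, thus stood among weaker peaks. The remaining 2 lay far upstream of the run, at 7.69 kb with a fold of 16.7 and at 19.0 kb with a fold of 9.36. The longest stretch without a peak between any of them was 11.03 kb.

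Pfkp, the platelet subunit gene (gene 56421), lies on the minus strand of chromosome 13, from 6579874 to 6649060. Its 3 peaks were unequal. The strongest, at 6621692 to 6622297, lay 27.1 kb from the 5′ end with a fold of 44.7 and a width of 606 bp. A pair near 51.0 and 52.1 kb had folds of 19.5 and 6.10, the second being the narrowest of the 29 peaks at 78 bp and, with a −log10 q of 20.8, close to the lowest value of the list, 20.004. Pfkp therefore had 1 peak with a fold near the highest of Pfkm, 44.7 beside 49.5, and 1 near the limit of what the list reports.

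Pfkfb2 (gene 18640), on the minus strand of chromosome 1 from 130689043 to 130729253, had 1 strong and 2 weak peaks. The strong one, at 130710028 to 130710609, had a fold of 48.4 and was 582 bp wide. It lay 18.9 kb from the 5′ end of the gene model and 3.97 kb downstream of the nearest listed start. The others had folds of 7.19 at 27.0 kb and 11.7 at 31.3 kb.

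Pfkfb3 (gene 170768), on the minus strand of chromosome 2 from 11471430 to 11554071, had no fold above 27.0 in its body. Its 3 peaks were gathered at the 3′ end, at 69.8, 73.8 and 82.3 kb, with folds of 19.7, 27.0 and 6.92. The last one, at 11471721 to 11471878, lay within 0.371 kb of the 3′ end. No peak had its midpoint in the 69.8 kb before these, 84.5% of the gene.

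The 29 body peaks had a median fold near that of the list, and 7 of them lay in its top 10%. The median fold was 14.8 (range 6.10 to 49.5), against 13.2 over all 84111 peaks; the 95% interval of the former, from the binomial order of the 29 values, was 11.7 to 22.1 and treats neighbouring peaks as independent. Of the 29 peaks, 19 reached the median of the list; the top 10% of the list begins at a fold of 30.5. The median width was 364 bp (78 to 976 bp), against 415 bp, and the median −log10 q was 89.1 against 107, both below those of the list. By gene the median folds were 13.97 in Pfkl, 15.7 in Pfkm, 19.5 in Pfkp, 11.7 in Pfkfb2 and 19.7 in Pfkfb3, and the ranges of the 5 genes overlapped. The larger number of peaks in Pfkl and Pfkm thus went with median folds near that of the list.

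The read depth behind these folds could be recovered from each fold and its p-value. The body peaks had pileups of 44 to 364 reads, with a median of 108, against 127 in the list. For 28 of the 29, the background was 6.37 reads, the lowest in the list and shared by 74.98% of its peaks. A given pileup has its highest fold at the lowest background. The median fold of the 29, above that of the list, therefore does not mean deeper peaks. The exception was the strong peak of Pfkp, with 341 reads over a background of 6.65. All 8 flanking peaks had the lowest background. Differences in fold between these peaks therefore come from their pileups alone, with that 1 exception. No local excess of background reads above that floor was recorded at the other 36 peaks.

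Peaks were more frequent toward the 3′ end. Of the 29, 23 (79.3%) lay past 50% of the gene's length from the 5′ end, against 62.5% of 15280 body peaks in 4539 other protein-coding genes of 20 to 100 kb. Per gene, this 3′ part held 8 of 10 in Pfkl, 8 of 10 in Pfkm, 2 of 3 in Pfkp, 2 of 3 in Pfkfb2 and 3 of 3 in Pfkfb3. Each of the 5 genes had most of its peaks there. With each gene cut into 10 equal bins from the 5′ end, bin 1 held no peak of the 5 genes and 4.80% of those in other genes. Bins 7 and 8 held 6 and 8 of the 29, that is 20.7% and 27.6%, where other genes had 10.5% and 12.1%. Bin 10 held 10.3%, whereas in other genes it was the fullest, with 16.7%.

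**Figure D3:**
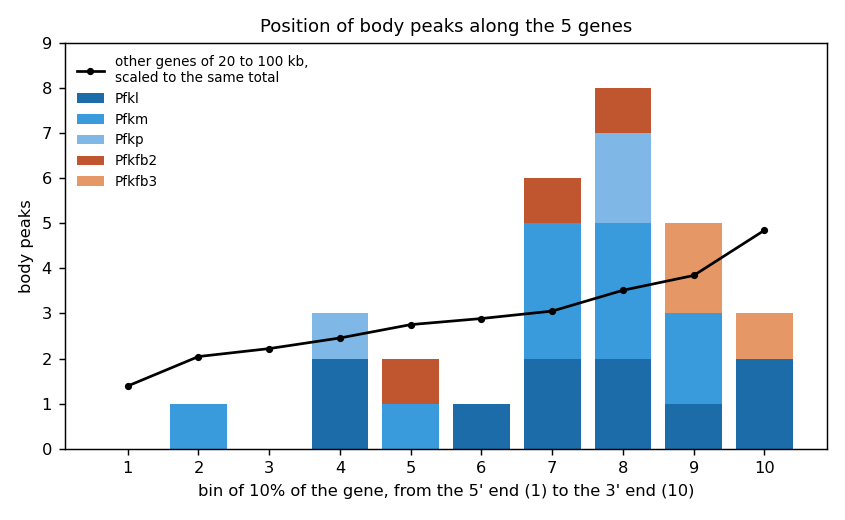
Body peaks of the 5 genes by position, with each gene cut into 10 equal bins from the 5′ end (1) to the 3′ end (10), stacked by gene; the black line gives other protein-coding genes of 20 to 100 kb, scaled to the same total of 29. No peak of the 5 genes falls in bin 1, and bin 8 holds 8.

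The distance from the 5′ end to the first peak was next set beside genes with the same number of peaks. Pfkl had its first peak 36.8% of the way along the gene, and Pfkm 19.3%. In 78 other genes of 20 to 100 kb with 10 body peaks the median was 15.2%, and the 90th percentile was 33.9%, below the value of Pfkl. In 519 such genes with 3 body peaks the median was 36.4% and the 90th percentile 72.0%. Pfkp (39.1%) and Pfkfb2 (47.1%) lay between these values, and Pfkfb3 (84.5%) lay above the 90th percentile. Several of the genes have more than 1 start, so these positions refer to the outermost 5′ end. The first peak of Pfkm, for example, lies upstream of 3 of its 4 listed starts, and the listed starts of Pfkfb2 lie 13.2 to 14.7 kb inside its gene model.

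At the transcription starts themselves the list was nearly empty. RefSeq lists 11 starts for the 5 genes, and none had a peak touching the 300 bases around it (250 before, 50 after). Few starts are touched in general, 2.96% of 15390 listed starts of other protein-coding genes, so a count of 0 among 11 says little about these genes. One of the 11 had a peak within 1 kb, where 8.15% of the other starts did. It was start 4 of Pfkm, whose nearest peak ended 326 bp upstream and was a weak one, with a fold of 9.36 and a width of 233 bp. The sequence printed above for this start held only 3 CpG.

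The remaining starts were kilobases away from any peak. The single start of Pfkl, with 20 CpG in its 300 bases, was 8.18 kb from a peak. The single start of Pfkp, with 21 CpG, was 13.8 kb away, the nearest peak being upstream and outside the 10 kb flank. The 2 starts of Pfkfb3 had 30 and 20 CpG, and were 9.29 and 17.6 kb away. The median of the other protein-coding starts was 14 CpG (quartiles 4 and 25) and 7.98 kb to the nearest peak. Over the 11 starts of the 5 genes the medians were 12 CpG and 5.44 kb. By the median, the 11 were thus nearer to a peak than other starts. The 4 starts of Pfkl, Pfkp and Pfkfb3 were the richest in CpG of the 11 and also the 4 farthest from a peak. The 3 starts of Pfkfb2 had 8, 14 and 1 CpG and were 5.44, 5.21 and 3.97 kb away. The first 3 starts of Pfkm had 4, 9 and 12 CpG and were 7.49, 3.03 and 2.95 kb away. Among other genes, starts with 15 or more CpG had a peak within 1 kb in 4.13% of 7635 cases, starts with 6 to 14 CpG in 16.1% of 3179 and starts with fewer in 9.31% of 4576. In the same order, the median distances of these other starts to a peak were 7.498, 5.989 and 10.512 kb. The order seen among the 11 was thus not that of other genes, where the starts poorest in CpG lay farthest by the median. Neighbouring starts of 1 gene share sequence and peaks, so the 11 are not independent.

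**Figure D4:**
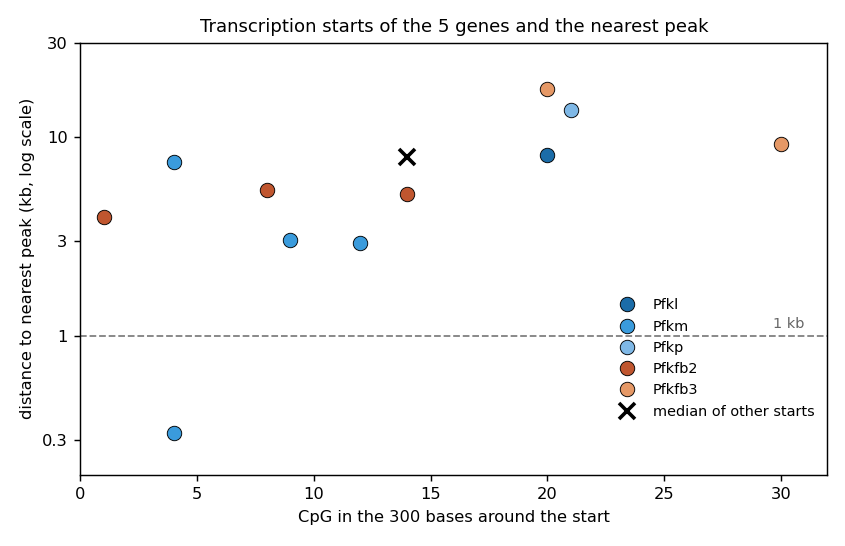
The 11 listed transcription starts of the 5 genes, with the number of CpG in the 300 bases around the start on the horizontal axis and the distance to the nearest peak edge in kb on the vertical log axis; the cross is the median of 15390 other starts and the dashed line marks 1 kb. Only start 4 of Pfkm, at 0.326 kb, lies below the line.

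The 8 flanking peaks had a median fold of 23.5 (9.22 to 32.02), and 7 of them lay beyond a 3′ end. The side on which such peaks lie was not counted for other genes. Downstream of Pfkl, peaks with folds of 9.22 and 27.4 lay 4.06 and 5.24 kb from its end, both within the neighbouring gene Cfap410; the weaker one also lies in Gm51807, a lncRNA gene. Downstream of Pfkm, 2 peaks with folds of 29.2 and 19.7 lay 3.53 and 9.84 kb away within Asb8. Those beyond Pfkp, with folds of 10.7 and 15.3, lay within Pitrm1. These 6 peaks thus lie in the bodies of adjacent genes and outside Pfkl, Pfkm and Pfkp. The peak beyond Pfkfb2, at 130685740 to 130686287 with a fold of 30.8, was in no other gene. The only flanking peak on a 5′ side was at Pfkfb3. It lay 9.61 kb before the 5′ end, at 11563218 to 11564143, in no gene, with a fold of 32.02 and a width of 926 bp, and so was stronger and wider than any peak inside that gene. The next peaks past the 10 kb limit lay at 10.3 kb from Pfkm and 10.7 kb from Pfkl.

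The other genes of glycolysis were read from a list of 27, of which 15 lay on covered sequence. Pfkfb1 and Pfkfb4, the remaining bifunctional enzymes, and Tigar, which breaks down fructose 2,6-bisphosphate, were among the 12 not analysed here. Of the 15, 14 had a body peak, where 64.7% of all protein-coding genes did, and only Pgam1 had none. More peaks than the median gene of their length were found in 8 of the 15, as in 39.2% of other protein-coding genes, 7 equalled the median and 0 were below it. Below it lay 29.4% of other protein-coding genes, but for 3 of the 15, Aldoc, Pgam1 and Pgam2, the median was 0 and a lower value was not possible. Of the 5 genes of the phosphofructokinase step 3 were above, Pfkp was equal and Pfkfb3 was below. The genes of the opposing step, Fbp1 and Fbp2, which encode fructose 1,6-bisphosphatases, had 1 body peak each in 23.5 and 21.5 kb, with folds of 7.60 and 8.41. Both are about as long as Pfkl, which had 10. The densest of the list were Pgam2, a phosphoglycerate mutase (1 peak in 2.16 kb, 4.63 per 10 kb), Aldoc, an aldolase (2 peaks, 4.25 per 10 kb), and Pklr, a pyruvate kinase (3 peaks, 2.81 per 10 kb). Pfkl, with 4.37 per 10 kb, lay among these although its count is spread over a longer gene. Beside genes of their own length these 3 were less unusual than Pfkl. As many peaks or more were found in 30.6% of genes as long as Pgam2, 12.4% for Aldoc and 17.2% for Pklr, against 1.41% for Pfkl. Hk1 and Hk2, the hexokinase genes, had 23 and 12 body peaks, 2.07 and 2.43 per 10 kb, near the 2.51 of Pfkm. Of all protein-coding genes, 3.51% had a density at least as high as Pfkl and 10.5% one at least as high as Pfkm.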

How the data were processed

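DNA from 3 control and 3 cKO primary chondrocyte cultures was enriched with MBD2 and sequenced, per the labels' protocols. Per the submitters' processing notes, fastp, Bowtie2 and MACS2 were used, and mm10 and GRCm38 are the builds named; settings are not given in the sources used here. The authors deposited 1 peak list in narrowPeak layout, with a fold enrichment (a ratio to the caller's background), −log10 p, −log10 q and a score per peak. The score deposited by the authors is 10 times the −log10 q, cut to a whole number. Per the peak names, 3 datasets were merged before calling. The lowest deposited −log10 q was 20.004. The last line of the copy used here, on chromosome 6, was incomplete (1 line) and was dropped; chromosomes 7, 8, 9, X and Y and the rest of 6 were not analysed here.

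Peaks were placed by midpoint on RefSeq genes of GRCm38.p6, leaving out genes within the first 3 Mb of a chromosome; all 5 genes matched by symbol. Strand and starts came from the RefSeq promoter table. Coordinates are 1-based. Pileup and background were solved from fold = (pileup + 1)/(background + 1) and a Poisson p; 99.97% of peaks were matched by a whole pileup within 1% of the step between whole pileups. The depth of each culture is unknown, and a peak has no counting interval here. The scripts were tested on simulated data. Control and cKO were not tested because no peak has a value per culture, and the 5 genes were not tested against other genes because they were chosen with earlier results known. The glycolysis list and the alternatives were likewise chosen with earlier results of these data known. Named genes were the 5, neighbours holding a flanking peak, the genes of the fructose 6-phosphate step, the 3 list genes densest in peaks and, chosen after their values were seen, Hk1, Hk2 and Pgam1. Python 3.11.15, NumPy 2.4.6, pandas 2.3.3, SciPy 1.17.1 and Matplotlib 3.10.9 were used.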

Additional observations from a re-analysis of the deposited data

How the results depend on the processing

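No paired analysis was possible because no peak has a value per culture, and for the same reason no replicate could be left out. Assigning peaks by their summit, or by any overlap (1 bp or more), gave the same 29 body peaks, and merging peaks within 500 bp gave 25. Merging left 7 peaks in Pfkl and 9 in Pfkm, so their equal count of 10 depended on how close peaks were split. After merging, 3.21% of genes as long as Pfkl had as many or more, against 1.41% before. For Pfkm the share was 4.74%, against 5.2% before. Filters lowered the numbers by their construction: peaks at or above the median fold left 19 in the bodies, and a −log10 q of at least 100 left 14 in the bodies and 19 in the bodies or within 10 kb, with a median body fold of 29.2. The total of 37 became 32 with a flank of 5 kb and 52 with 20 kb. Over 10 alternatives that could change the comparison with genes of similar length, Pfkl and Pfkm were above the median in 10 of 10; the share of such genes with as many peaks ran from 0.846% to 6.31% for Pfkl and from 3.68% to 7.37% for Pfkm. Pfkfb2 was above the median in 8 and equal in 2, Pfkp was above in 1, equal in 8 and below in 1, and Pfkfb3 was equal in 6 and below in 4. Shallow or CpG-poor methylation under the list's threshold cannot be seen in these data.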
